A study of Mus musculus with 45 samples.

Results

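The 36 genes described here code for the enzymes and transporters of glycolysis and for genes known to respond to low oxygen. They were chosen by gene symbol, from a list made with earlier results of these data known. All 36 were present among the 30317 genes of the deposited table. All 36 also passed the filter on low values that left 15614 genes for testing. By role they comprised 2 glucose transporters, 8 genes of upper glycolysis, 9 of lower glycolysis, 5 for the fate of lactate and pyruvate, 3 for the hypoxia sensor system, 2 mitophagy receptors and 7 other hypoxia response genes.

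The study cultured follicular B cells from mouse spleen on OP9 stromal cells of bone marrow origin, with or without (OP9-DL1 or OP9) the Notch ligand Delta-like 1. Every cell came from B6.Blimp1GFP/+ mice, so all groups, controls included, carried the Blimp1 reporter allele. The groups were DL1 and OP9 cultures with LPS at 20, 44 and 68 h, DL1 and OP9 cultures with anti-IgM F(ab)'2 at 20, 44 and 68 h, and DL1 and OP9 cultures without a stimulus at 68 h. Both stimuli were given at 10 ug/mL. A further group, Blimp1+ cells, was sorted out of LPS cultures on DL1, and the labels give it no time. Each of the 15 groups had 3 RNA-seq libraries, 45 in all, and the animals behind the replicates are not stated, so a p-value measures the spread between these libraries. Viable cells were sorted, with no sort for a B cell marker named for the cultures. Below, DL1 cells and OP9 cells mean the cells sorted from cultures of B cells on OP9-DL1 or OP9, not the stromal lines themselves.

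Glycolysis splits glucose into pyruvate and yields ATP without oxygen, and lactate dehydrogenase then turns pyruvate into lactate, which monocarboxylate transporters carry out of the cell. When oxygen is low, the transcription factor HIF-1 escapes hydroxylation by the Egln enzymes and binds DNA at a short core motif near many glycolytic genes, Bnip3, Vegfa and Egln3 itself. B cells take up more glucose when they are activated, and germinal centre and plasma cells have been studied for their use of hypoxia response genes.

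Values are transcripts per 1e+06 (TPM), divided by a size factor per library, and are called scaled TPM below. Library depth ran from 3070000 to 29100000 estimated reads. In 10 libraries Actb lay between 12355 and 85337 TPM, against 217 to 2974 TPM in the other 35. They were all 3 libraries of DL1 LPS at 20 h, all 3 of OP9 anti-IgM at 20 h, and replicate 3 of DL1 LPS, OP9 LPS, OP9 anti-IgM and OP9 unstimulated cells at 68 h. The B cell markers Cd79a, Cd79b and Ms4a1 were detected in all 45 libraries. The 12 stroma markers took 0.0991% to 1.42% of TPM in the 3 OP9 unstimulated libraries and 0.00279% to 0.0355% in the other 42. A library is bulk RNA, in which fewer cells of a type and less RNA per cell cannot be told apart.

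Among the members, Ldha, the lactate-forming subunit of lactate dehydrogenase, had the highest level, with 299.9 to 7322 scaled TPM over the 45 libraries and a median of 2381. Mif, a cytokine gene that responds to hypoxia, and the glycolytic enzymes Eno1, Aldoa, Pkm and Gapdh followed, with medians between 1086 and 1344 scaled TPM. The lowest medians were those of Egln3, at 0.747, the neuronal enolase Eno2, at 1.26, and Pfkfb4, at 2.10 scaled TPM. The group with the highest mean was the Blimp1+ sort for 11 members, OP9 unstimulated for 8, DL1 LPS at 44 h for 7 and DL1 LPS at 68 h for 4. Members differed most over groups in Slc16a3, the lactate exporter Mct4, whose highest group mean was 679 times its lowest. That lowest group, DL1 LPS at 20 h, had 0.170 to 0.623 scaled TPM, near the floor, and only high-Actb libraries. For Egln3 the ratio of highest to lowest group mean was 550, with its lowest group mean near 0, while Egln1 spanned 4.71-fold.

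**Figure D1:**
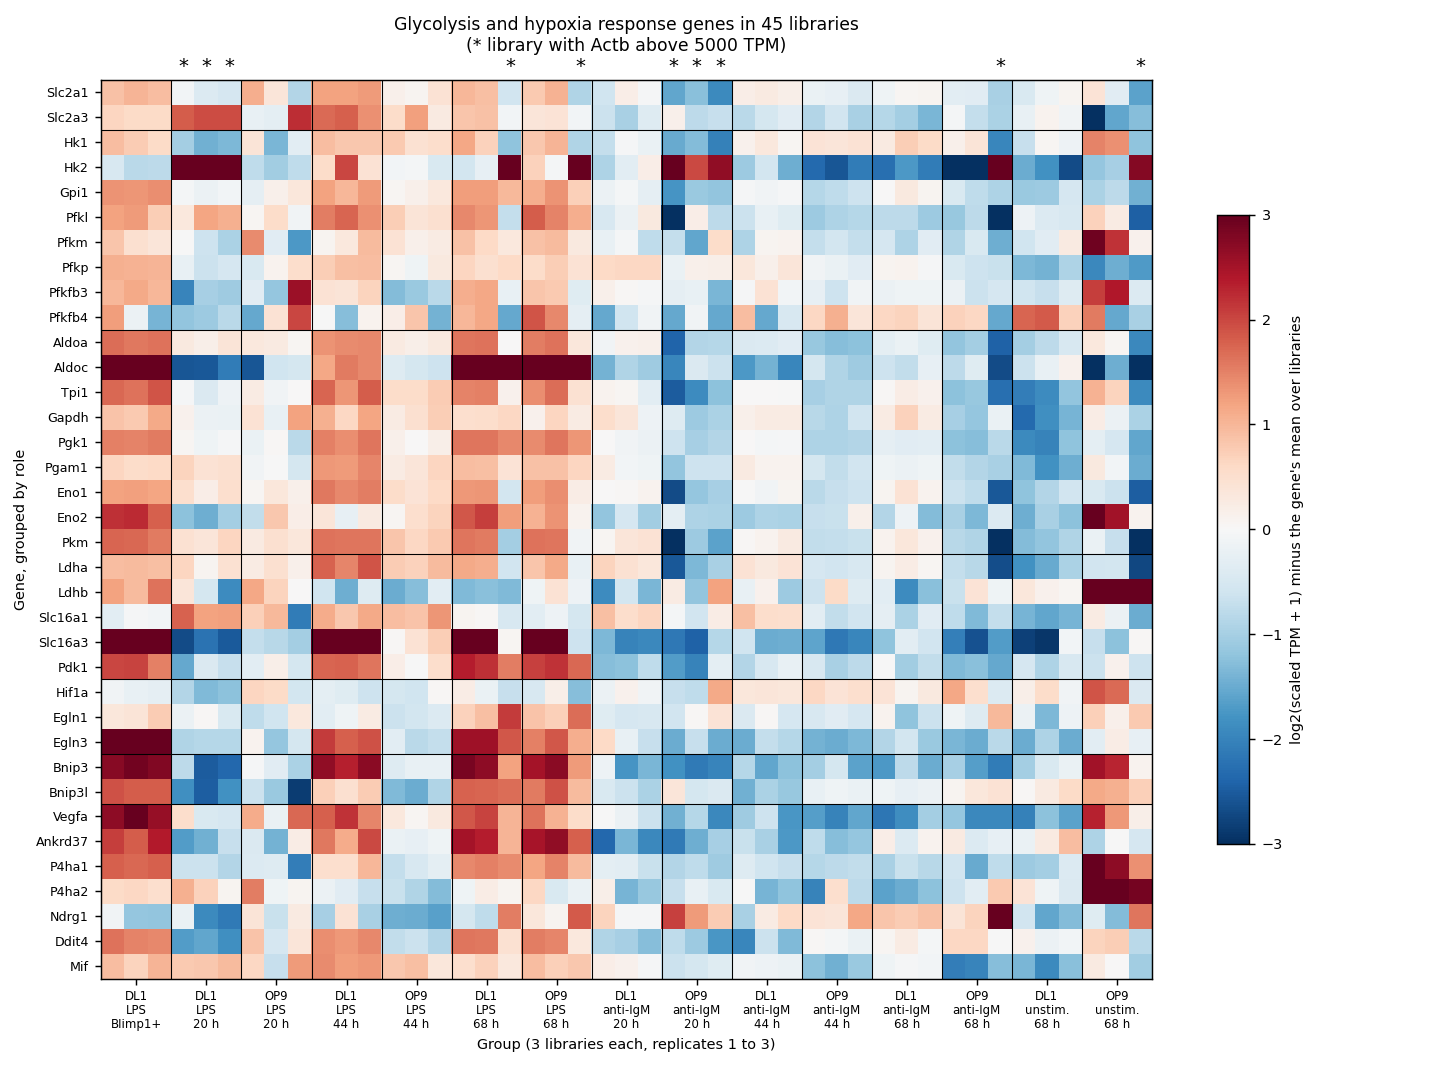
Each column is a library and each line a member, and colour gives log2(scaled TPM + 1) minus the gene's mean over 45 libraries. In the DL1 LPS 44 h columns 29 members are above their own mean in all 3 libraries, against 19 in the OP9 LPS 44 h columns, and asterisks mark the 10 libraries with Actb above 5000 TPM.

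Summed, the 36 members took 2.82% ± 0.152 of all TPM in DL1 LPS cells at 44 h (SD, n = 3) and 1.53% ± 0.128 in OP9 LPS cells at 44 h. At 68 h with LPS the DL1 libraries were at 2.78%, 2.65% and 0.837% and the OP9 libraries at 2.42%, 2.72% and 1.17%. The lowest library of each of these groups was replicate 3, which also had high Actb. With anti-IgM the DL1 cells stood at 1.24% ± 0.0237 at 20 h, 1.16% ± 0.0165 at 44 h and 1.06% ± 0.0886 at 68 h. The OP9 anti-IgM cells stood at 0.415% ± 0.191 at 20 h, 0.704% ± 0.00789 at 44 h and 0.491% ± 0.284 at 68 h. At each of these times every DL1 anti-IgM library was above every OP9 anti-IgM library. All OP9 anti-IgM libraries at 20 h had high Actb and no DL1 anti-IgM library did. At 68 h OP9 anti-IgM replicate 3, also with high Actb, was at 0.164%, against 0.685% and 0.624% in replicates 1 and 2. Without a stimulus the share was 0.550% ± 0.124 in DL1 cells and 0.742% ± 0.460 in OP9 cells. The OP9 libraries were at 1.05%, 0.959% and 0.213%, the last being replicate 3 with high Actb. OP9 replicates 1 and 2 lay above all DL1 libraries (0.429% to 0.678%), and replicate 3 lay below them.

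**Figure D2:**
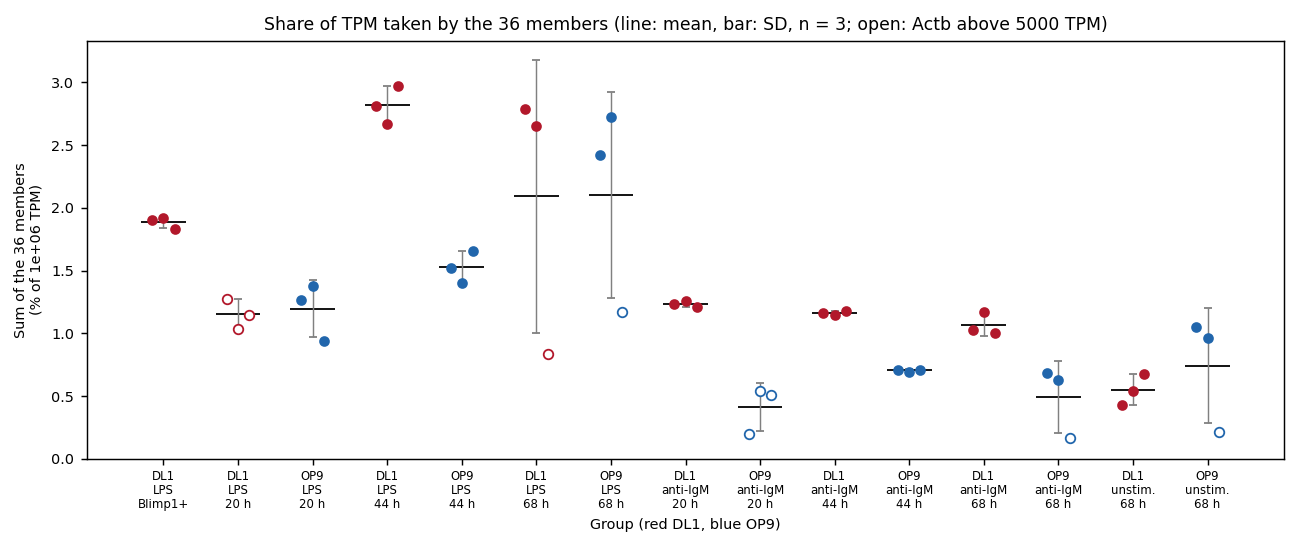
The vertical axis is the sum of the 36 members in percent of 1e+06 TPM, with a point per library, the mean as a line and the SD as a bar. DL1 LPS libraries at 44 h lie between 2.67% and 2.97%, OP9 LPS libraries at 44 h between 1.40% and 1.66%, and open points mark libraries with high Actb.

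At 44 h with LPS, DL1 cells had higher levels of most of these genes than OP9 cells. In 28 of the 36 members all DL1 libraries lay above all OP9 libraries, against 8.51% of all genes tested, and the median log2 difference of the members was 1.00, against 0.00 for all genes. In the fit across all genes (limma with Benjamini-Hochberg adjustment) 6 members rose and none fell, where 0.16% of all genes were called, 0.141% as higher. The 6 were the mitophagy receptors Bnip3 and Bnip3l, the HIF hydroxylase Egln3, the mTOR inhibitor Ddit4 and the glycolytic enzymes Pgk1 and Gpi1.

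Bnip3, an outer mitochondrial membrane protein that marks mitochondria for removal, had 477, 383 and 493 scaled TPM in DL1 cells, against 57.5, 63.8 and 64.3 in OP9 cells. Each DL1 library was far above each OP9 library, and the log2 difference was 2.84 ± 0.51 (SE; limma adjusted p = 0.00353). Its relative Bnip3l had 368, 315 and 385 scaled TPM in DL1 cells, against 89.2, 78.9 and 121 in OP9 cells, with a log2 difference of 1.89 ± 0.32 (limma adjusted p = 0.00245). Egln3, one of the oxygen-dependent enzymes that mark HIF for destruction and itself a HIF target, had 10.98, 8.73 and 9.57 scaled TPM in DL1 cells, against 1.27, 0.606 and 0.716 in OP9 cells. It was thus near the floor in OP9 cells, and its log2 difference was 2.54 ± 0.33 (limma adjusted p = 3.5e-05). Ddit4 had 22.6, 21.0 and 23.3 scaled TPM in DL1 cells, against 4.44, 4.72 and 3.91 in OP9 cells, a log2 difference of 2.12 ± 0.38 (limma adjusted p = 0.00353). The 3 libraries of each group lay close together and apart from the other group.

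Pgk1, the first ATP-producing enzyme of glycolysis, averaged 1054 ± 75.0 scaled TPM in DL1 cells and 403 ± 25.6 in OP9 cells (SD, n = 3 each), with a log2 difference of 1.39 ± 0.23 (limma adjusted p = 0.00174). Gpi1, which converts glucose-6-phosphate to fructose-6-phosphate, averaged 297 ± 28.3 in DL1 cells and 149 ± 13.9 in OP9 cells, a log2 difference of 0.98 ± 0.20 (limma adjusted p = 0.0209). Reads of Pgk1, Eno1 and Pgam1 can be shared with near copies that the table also lists. Pgk1-rs7 reached 28.04, Eno1b 157 and Pgam1-ps2 165 scaled TPM, so how their reads were split is uncertain.

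HIF-1 binds an ACGTG or GCGTG core, and the promoters shown are those of the 4 called members that hold a match, while the Gpi1 window holds 0 and Bnip3l had no entry. The windows are the 250 bases before the annotated transcription start (RefSeq, GRCm38.p6), read 5′ to 3′ on the gene's strand, and capitals mark every ACGTG or GCGTG and their reverse complements CACGT and CACGC. In the Bnip3 window at chr7:138909507-138909756 (minus strand) 5 matches were found, of which the palindromic run CACGTG holds an overlapping pair. The Egln3 window at chr12:54203875-54204124 (minus strand) holds 1, the Ddit4 window at chr10:59951771-59952020 (minus strand) 2 and the Pgk1 window at chrX:106186850-106187099 (plus strand) 2.
Bnip3: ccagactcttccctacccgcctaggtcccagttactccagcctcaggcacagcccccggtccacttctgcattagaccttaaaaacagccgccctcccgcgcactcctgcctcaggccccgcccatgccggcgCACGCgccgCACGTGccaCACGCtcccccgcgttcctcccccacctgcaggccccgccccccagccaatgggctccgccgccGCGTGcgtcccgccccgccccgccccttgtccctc
Egln3: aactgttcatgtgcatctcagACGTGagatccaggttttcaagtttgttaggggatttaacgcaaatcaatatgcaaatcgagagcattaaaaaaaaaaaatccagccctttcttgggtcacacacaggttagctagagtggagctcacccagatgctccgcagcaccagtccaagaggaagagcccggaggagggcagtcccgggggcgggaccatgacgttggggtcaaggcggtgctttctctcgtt
Ddit4: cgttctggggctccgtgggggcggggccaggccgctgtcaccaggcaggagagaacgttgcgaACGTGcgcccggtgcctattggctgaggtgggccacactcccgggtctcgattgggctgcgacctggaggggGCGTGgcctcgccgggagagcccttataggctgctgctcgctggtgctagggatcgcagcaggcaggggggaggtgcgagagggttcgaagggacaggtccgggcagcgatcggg
Pgk1: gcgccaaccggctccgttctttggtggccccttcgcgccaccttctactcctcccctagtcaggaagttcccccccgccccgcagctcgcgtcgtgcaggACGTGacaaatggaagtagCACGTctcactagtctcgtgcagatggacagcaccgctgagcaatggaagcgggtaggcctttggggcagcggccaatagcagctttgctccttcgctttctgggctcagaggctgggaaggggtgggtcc

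Of the 36 members 33 had a promoter in the RefSeq set, with 47 promoters in all (Bnip3l, Ndrg1 and Slc2a3 had none there). Either motif was found in 37 of these 47 windows (78.7%), against 12679 of all 32851 mouse promoter windows of the same length (38.6%). ACGTG or its complement alone was found in 23 of the 47 (48.9%) and in 5444 of all windows (16.6%). Both motifs contain a CG, base composition was not matched, and a match of letters is not a binding site. The members were chosen as glycolysis and known hypoxia response genes, so the motif share may reflect that choice and is no result of these libraries. Some members count with several windows.

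Members outside the 6 called genes mostly had the same direction without passing the threshold. Slc16a3 had 123, 96.8 and 121 scaled TPM in DL1 LPS cells at 44 h, against 6.79, 9.27 and 11.7 in OP9 LPS cells, the largest log2 difference of any member at 3.5 ± 0.92. Its limma adjusted p was 0.186, and 5.74e-05 without the 10 libraries with high Actb, none of which is in these groups. Pdk1, a kinase that inhibits pyruvate dehydrogenase, averaged 120 ± 7.17 in DL1 cells and 43.2 ± 8.53 in OP9 cells (limma adjusted p = 0.0653). Ankrd37, a HIF target of little known function, averaged 176 ± 51.6 in DL1 cells and 50.3 ± 2.11 in OP9 cells (limma adjusted p = 0.0653). Aldoc, an aldolase better known from brain, averaged 67.6 ± 9.36 in DL1 cells and 17.4 ± 1.58 in OP9 cells (limma adjusted p = 0.334). The fit takes each gene's spread from all 15 groups, high-Actb libraries included. These p-values therefore do not measure the spread within the compared groups alone. Hif1a itself averaged 19.3 ± 2.29 in DL1 cells and 20.5 ± 5.54 in OP9 cells, and these libraries overlapped. The lactate transporter Slc16a1 averaged 38.0 ± 4.84 in DL1 cells and 38.6 ± 7.40 in OP9 cells.

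Genes of neighbouring pathways were counted in the same comparison. Of 35 other hypoxia response genes tested 2 rose, the adenylate kinase Ak4 and the mitochondrial Fam162a. Fam162a averaged 756 ± 55.2 scaled TPM in DL1 cells and 250 ± 41.1 in OP9 cells (log2 difference 1.60 ± 0.30, limma adjusted p = 0.00716). None of 8 pentose phosphate genes, 14 genes of pyruvate dehydrogenase and pyruvate import and 17 genes of the TCA cycle was called. With 0.16% of all genes called, no call is likely in lists this short. Their median log2 differences were -0.16, -0.02 and -0.07. The calls of members depended on the scaling: with TPM as deposited 1 was called (Egln3), and with the authors' log2 table none, although each difference kept its direction. Without the high-Actb libraries 17 members were called, all higher, where 0.698% of all genes were.

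**Figure D3:**
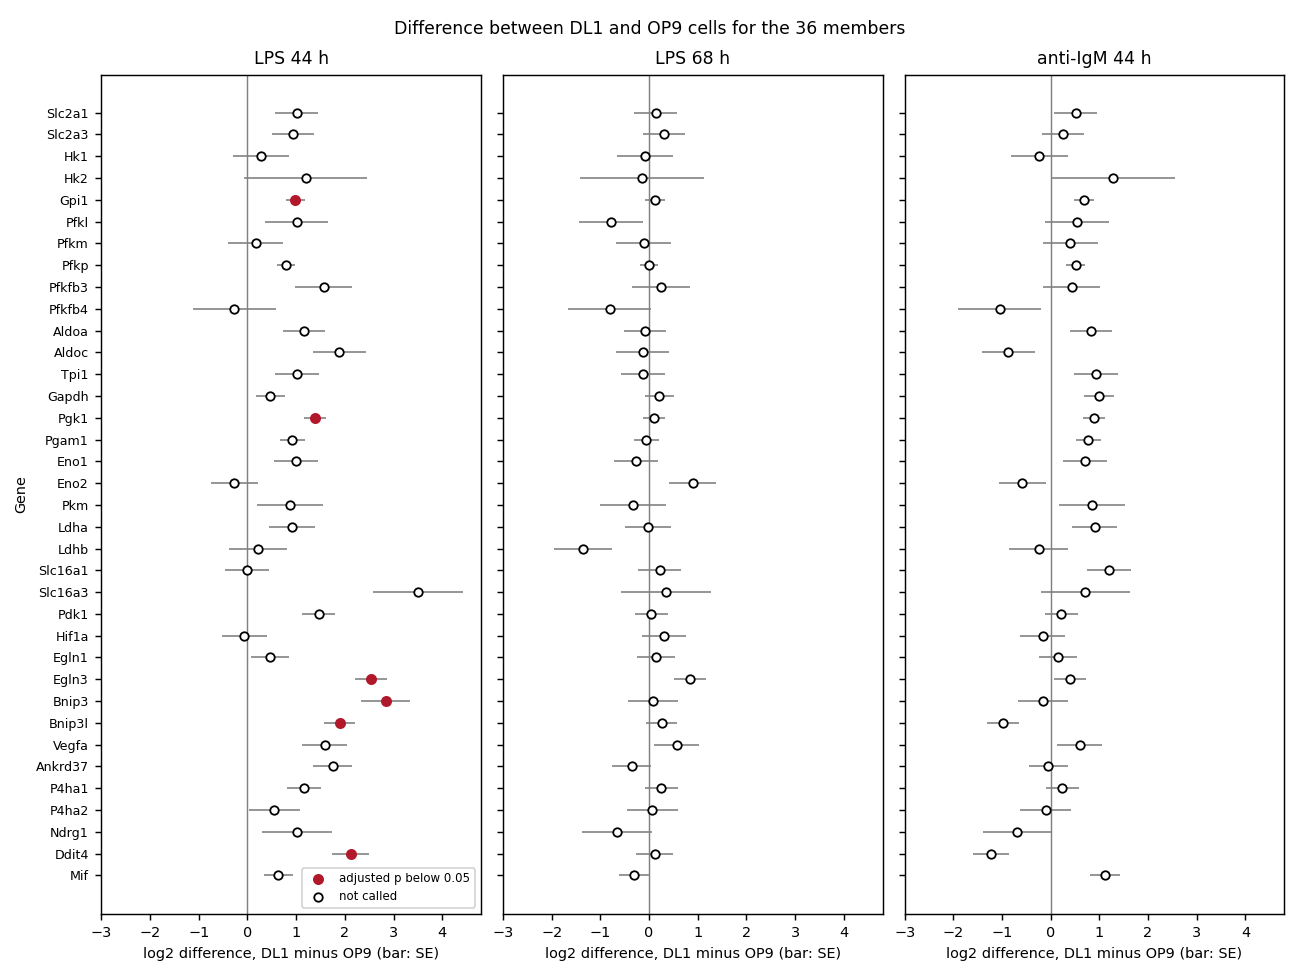
Points are log2 differences between DL1 and OP9 cells for the 36 members with LPS at 44 h, LPS at 68 h and anti-IgM at 44 h, bars are SE from the limma fit, and red points have an adjusted p below 0.05. With LPS at 44 h 6 members are red, from 0.98 (Gpi1) to 2.84 (Bnip3), and the other panels have none.

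At 68 h with LPS no member passed the test between DL1 and OP9 cells. None was called, where 0.0512% of all genes were, 0.0192% as higher and 0.032% as lower, 2 of the 36 had an unadjusted p under 0.05 (limma; 497 of all genes), and none was called with TPM as deposited or with the authors' log2 table. The members' median log2 difference was 0.06, against 0.07 for all genes. Bnip3 had 544, 489 and 174 scaled TPM in DL1 cells, against 431, 499 and 183 in OP9 cells, and Pgk1 had 1138, 1129 and 1006 in DL1 cells, against 999.9, 1128 and 929 in OP9 cells. In both genes replicate 3 of each group was lowest and the groups overlapped. Egln3 had, in DL1 cells, 15.3, 15.5 and 9.26 scaled TPM, against 6.96, 9.30 and 4.97 in OP9 cells, and did not pass the threshold (log2 difference 0.83 ± 0.33, limma adjusted p = 1).

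The change of the DL1 effect between 68 and 44 h, a comparison added after the values were seen, was tested in the same fit. No member was called, where 0.0128% of all genes were, but 14 of the 36 had an unadjusted p under 0.05 (limma; 314 of all genes), and the members' median was -1.08, against 0.07 for all genes. Bnip3 had -2.76 ± 0.72 and Pgk1 -1.28 ± 0.32 on the log2 scale (limma adjusted p = 0.705 and 0.585). Without the libraries with high Actb 2 members were called, both lower, where 0.0512% of all genes were. TPM as deposited and the authors' log2 table called none. The same change with anti-IgM had 0 members called, as of all genes 0%, a median of 0.15 and 1 member with an unadjusted p under 0.05.

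With LPS in OP9 cells, 12 members rose between 44 and 68 h and none fell, where 6.88% of all genes were called, 3.15% as higher, and the members' median log2 difference was 0.92, against 0.09 for all genes. Aldoc had 636, 521 and 479 scaled TPM at 68 h, against 19.1, 17.2 and 16.004 at 44 h, a log2 difference of 4.88 ± 0.54 (limma adjusted p = 2.99e-07). Bnip3l had 668, 842 and 437 scaled TPM at 68 h, against 89.2, 78.9 and 121 at 44 h (log2 difference 2.71 ± 0.32, limma adjusted p = 8.57e-07). Bnip3 (2.44 ± 0.51), Egln3 (2.10 ± 0.33), Ddit4 (1.85 ± 0.38), Pgk1 (1.33 ± 0.23) and Gpi1 (0.88 ± 0.20) were also called, in log2 differences at 68 h against 44 h. This comparison and the DL1 effect at 44 h share the OP9 LPS 44 h libraries. The other 5 were Ankrd37 (2.50 ± 0.40), Pdk1 (1.74 ± 0.34), P4ha1, a collagen prolyl hydroxylase (1.71 ± 0.34), Egln1 (1.62 ± 0.39) and Ndrg1 (2.28 ± 0.71), on the same scale. Ndrg1 had 5.24, 4.17 and 16.5 scaled TPM at 68 h, against 0.777, 0.751 and 0.573 at 44 h, with the high-Actb library on top. The same library was on top for Egln1, with 9.02, 8.02 and 16.6 at 68 h, against 2.50, 2.77 and 3.14 at 44 h. Without the libraries with high Actb the median member was at 113 scaled TPM in DL1 cells at 68 h, 108 in OP9 cells at 68 h, 91.1 in DL1 cells at 44 h and 38.2 in OP9 cells at 44 h. As a description with no test, the median over members of the log2 difference between DL1 cells at 44 h and OP9 cells at 68 h was -0.08. The authors' log2 table called 5 members, and 19 were called without the high-Actb libraries, where 12.9% of all genes were.

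In DL1 cells with LPS 4 members rose between 44 and 68 h and none fell, where 6.76% of all genes were called and 3.39% were higher. Aldoc had 568, 601 and 351 scaled TPM at 68 h, against 57.4, 75.8 and 69.6 at 44 h, a log2 difference of 2.86 ± 0.54 (limma adjusted p = 0.000674). Bnip3l (1.08 ± 0.32), Egln1 (1.30 ± 0.39) and the neuronal enolase Eno2 (1.59 ± 0.48) were the others. Egln1 had 7.89, 9.36 and 22.4 scaled TPM at 68 h, with the high-Actb library on top, against 3.41, 3.99 and 5.56 at 44 h. The members' median was -0.16, against 0.17 for all genes, and Ldha had 4403, 4251 and 1345 scaled TPM at 68 h, against 6832, 5510 and 7322 at 44 h. Leaving out any 1 of the 6 libraries left 1 or 2 calls, 1 without any DL1 LPS 44 h replicate and 2 without any DL1 LPS 68 h replicate. TPM as deposited left 1 and the authors' log2 table none.

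Between 44 and 20 h in OP9 LPS cells no member was called, where 1.65% of all genes were, 0.973% as higher and 0.672% as lower, with 7 at an unadjusted p under 0.05 (limma; 1826 of all genes) and none with TPM as deposited or the authors' log2 table. The median was 0.28, against 0.00 for all genes. OP9 LPS replicate 3 at 20 h stood apart from its group for several members, with 124 scaled TPM of the neuronal-type glucose transporter Slc2a3, against 22.1 and 20.9 in replicates 1 and 2. Its Pfkfb3, which makes the main allosteric activator of phosphofructokinase, was at 92.4, against 11.3 and 5.96. Leaving out OP9 LPS 20 h replicate 2 gave 3 calls, and leaving out the high-Actb libraries gave 3 higher and 3 lower.

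**Figure D4:**
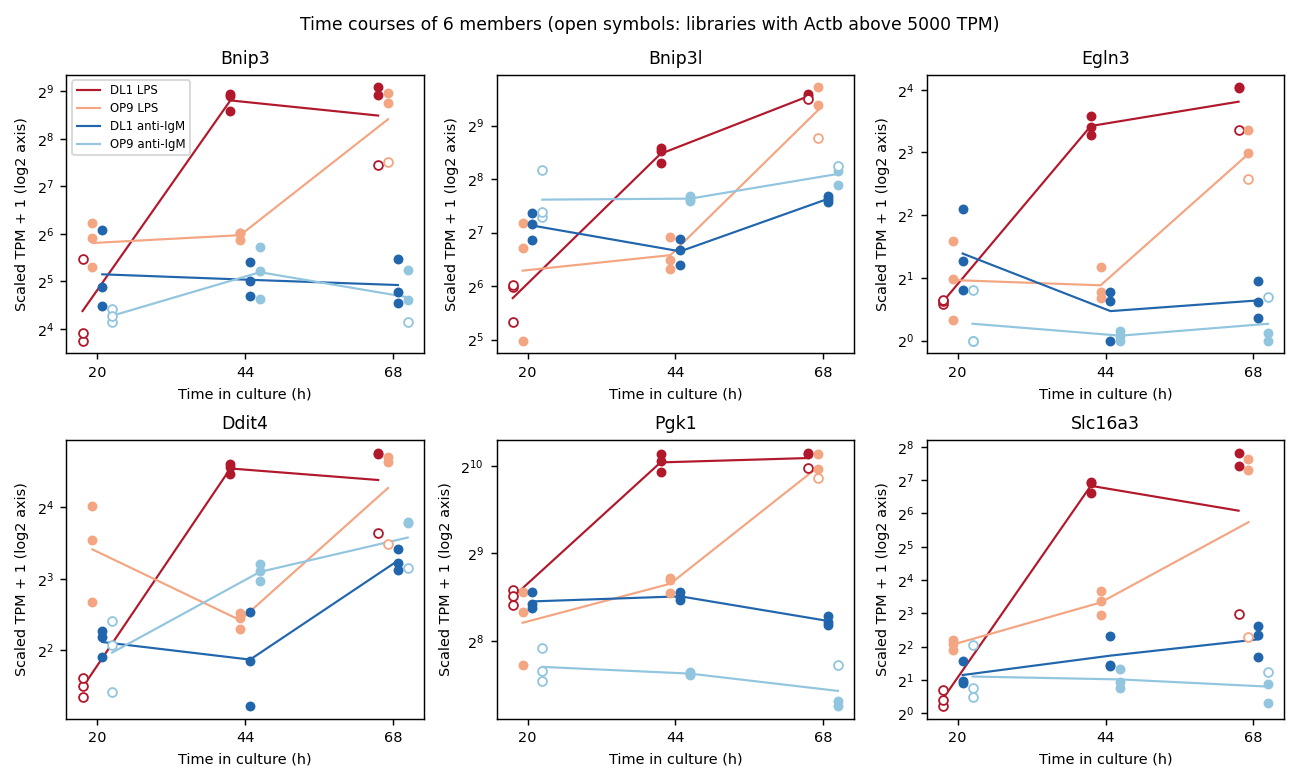
Scaled TPM + 1 is drawn on a log2 axis against hours in culture for 6 members, a point per library and lines through group means of log2 values; open points are libraries with Actb above 5000 TPM. DL1 LPS cells had 383 to 493 scaled TPM of Bnip3 at 44 h, and OP9 LPS cells had 57.5 to 64.3 at 44 h and 183 to 499 at 68 h.

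At 20 h with LPS the DL1 libraries all had high Actb and the OP9 libraries did not, so the effect of DL1 and of this feature cannot be told apart. Of the members 3 rose and 1 fell, where 8.58% of all genes were called, 3.84% as higher and 4.75% as lower, and the members' median was -0.43, against 0.00 for all genes. Hexokinase 2 (Hk2), which traps glucose in the cell as glucose-6-phosphate, had 353, 833 and 427 scaled TPM in DL1 cells, against 25.2, 20.6 and 25.0 in OP9 cells, a log2 difference of 4.36 ± 1.27 (limma adjusted p = 0.0265). Slc16a1 had 63.5, 43.1 and 43.7 in DL1 cells, against 30.4, 36.4 and 3.43 in OP9 cells (1.54 ± 0.45). Slc2a3 overlapped between the groups (1.36 ± 0.43). Ddit4 fell to 1.82, 2.04 and 1.53 scaled TPM in DL1 cells, against 15.2, 5.39 and 10.6 in OP9 cells (log2 difference -1.93 ± 0.38, limma adjusted p = 0.00131). At 44 h its log2 difference was 2.12, and the change between these times was not tested. In the 4 groups at 68 h with 1 high-Actb library, Ddit4 was lower in that library than in the others (log2 -1.50 to -0.64). Hk2 was higher in that library in all 4 groups (log2 3.83 to 6.98). Slc16a1 (-1.52 to 0.33) and Slc2a3 (-0.94 to 1.01) went both ways. Without DL1 LPS replicate 1, 2 or 3 the calls were 2, 1 and 1. With TPM as deposited 1 was higher and 1 lower, and with the authors' log2 values 1 was higher and 3 lower. In the fit across all genes none of 35 other hypoxia genes was higher in DL1 cells and 3 were lower.

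With anti-IgM at 44 h the DL1 and OP9 libraries did not overlap in many members, but no member was called, where 0.845% of all genes were, 0.442% as higher and 0.403% as lower, with 10 at an unadjusted p under 0.05 (limma; 1335 of all genes), and none with TPM as deposited or the authors' log2 table. In 18 members all DL1 libraries lay above all OP9 libraries, against 15% of all genes, in 6 they lay below, against 19.6% of all genes, and the median log2 difference was 0.42, against -0.05 for all genes. Pgk1 had 377, 354 and 361 scaled TPM in DL1 cells, against 195, 195 and 200 in OP9 cells (log2 difference 0.88 ± 0.23, limma adjusted p = 0.0527). Mif had 1135, 1104 and 1074 in DL1 cells, against 519, 448 and 566 in OP9 cells (1.12 ± 0.30, limma adjusted p = 0.0741). Bnip3l had 82.7, 117 and 102 in DL1 cells, against 192, 206 and 197 in OP9 cells, and Ddit4 1.33, 4.77 and 2.61 in DL1 cells, against 8.24, 7.66 and 6.79 in OP9 cells. In both of these the DL1 libraries were all below the OP9 libraries (limma adjusted p = 0.204 and 0.156). Without the high-Actb libraries, none of them in these groups, 11 members were called higher and 1 lower, where 5.83% of all genes were called.

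The difference between the DL1 effects of LPS and anti-IgM at 44 h was tested directly. It was called for 3 members, all more positive with LPS, where 0.0961% of all genes were called, 0.064% as higher and 0.032% as lower, and the members' median was 0.49, against 0.06 for all genes. Ddit4 differed by 3.35 ± 0.54 and Bnip3l by 2.88 ± 0.46 on the log2 scale (limma adjusted p = 0.00203 for each). Egln3 differed by 2.15 ± 0.46 with a limma adjusted p of 0.0496, and this call held in 3 of 20 other settings. All its anti-IgM libraries at 44 h lay below the pseudocount of 1, so the size of this difference is uncertain. Bnip3 had 3.00 ± 0.72 and an adjusted p of 0.128. Pgk1 had 0.50 ± 0.32 and Gapdh -0.52 ± 0.42, with limma adjusted p of 1. TPM as deposited and the authors' log2 table called none, and 6 members were called without the high-Actb libraries, where 1.4% of all genes were.

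At 20 h with anti-IgM 12 members were higher in DL1 cells and none lower, where 20.1% of all genes were called, 9.68% as higher, and the median was 0.60, against -0.03 for all genes. The 3 OP9 libraries all had high Actb and the DL1 libraries did not, so that feature and DL1 cannot be told apart here. Ldha had 3154, 2752 and 2544 scaled TPM in DL1 cells, against 343, 785 and 1011 in OP9 cells (log2 difference 2.11 ± 0.47, limma adjusted p = 0.0044). The pyruvate kinase gene Pkm had 981, 1217 and 1270 in DL1 cells, against 79.8, 442 and 308 in OP9 cells (2.37 ± 0.67), and Tpi1, Eno1 and Aldoa were called as well. In the 4 groups at 68 h with 1 high-Actb library, each of these genes was lower in that library than in the others. The log2 differences there were -3.37 to -1.72 for Pkm, -2.18 to -1.22 for Ldha and -2.77 to -1.07 for Tpi1. For Eno1 they were -1.91 to -1.11 and for Aldoa -2.13 to -1.24. Without OP9 anti-IgM replicate 1 the calls were 4, without DL1 anti-IgM replicate 1 they were 7 and without DL1 anti-IgM replicate 2 they were 5.

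At 68 h with anti-IgM 3 members were higher in DL1 cells and none lower, where 1.32% of all genes were called, 0.679% as higher and 0.64% as lower, and the median was 0.49, against -0.16 for all genes. Mif had 1115, 1196 and 1155 scaled TPM in DL1 cells, against 291, 311 and 506 in OP9 cells, a log2 difference of 1.69 ± 0.30 (limma adjusted p = 0.0029). Gapdh (1.19 ± 0.30) and Gpi1 (0.85 ± 0.20) were the others. Without OP9 anti-IgM replicate 2 the calls were 5, without any 1 of the 3 DL1 anti-IgM libraries 1, and without the high-Actb libraries 11, where 5.48% of all genes were called. Over time no member was called with anti-IgM: between 44 and 20 h in DL1 cells (0.0576% of all genes called, 0.0256% higher and 0.032% lower, 1 member and 720 genes at an unadjusted p under 0.05 in limma), between 68 and 44 h in OP9 cells (0.0128%, 1 member and 1296 genes) or between 68 and 44 h in DL1 cells (0.173%, 5 members and 1029 genes). With TPM as deposited and the authors' log2 table these counts were 0 as well. Between 20 and 44 h in OP9 cells no comparison was made, since all libraries at 20 h had high Actb.

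Stimulus against stimulus at 44 h, the called members were higher with LPS than with anti-IgM on both stromas, with Bnip3l on OP9 as the exception. On DL1 17 members were higher with LPS and none lower, where 2.84% of all genes were called, 1.42% as higher, with a median of 1.40, against 0.00 for all genes. Slc16a3 had 123, 96.8 and 121 scaled TPM with LPS, against 3.99, 1.69 and 1.74 with anti-IgM, a log2 difference of 5.10 ± 0.92 (limma adjusted p = 0.000411). Bnip3 had 477, 383 and 493 with LPS, against 41.4, 24.6 and 31.2 with anti-IgM (3.78 ± 0.51, limma adjusted p = 4.15e-06). Vegfa, the endothelial growth factor, averaged 25.3 ± 6.35 with LPS and 2.53 ± 1.32 with anti-IgM (2.94 ± 0.46, limma adjusted p = 4.18e-05). Of 35 other hypoxia genes 5 were higher with LPS on DL1 and none lower.

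On OP9 at 44 h 10 members were higher with LPS and 1 lower, where 8.35% of all genes were called, 4.16% as higher and 4.19% as lower, and the median was 0.90, against -0.08 for all genes. Mif averaged 2001 ± 394 scaled TPM with LPS and 511 ± 59.3 with anti-IgM (log2 difference 1.95 ± 0.30, limma adjusted p = 2.77e-05). Vegfa averaged 7.64 ± 0.844 with LPS and 1.24 ± 0.343 with anti-IgM (1.95 ± 0.46). Bnip3l was the gene that was lower, with 89.2, 78.9 and 121 with LPS, against 192, 206 and 197 with anti-IgM (-1.06 ± 0.32, limma adjusted p = 0.0343), while on DL1 it was higher with LPS (1.82 ± 0.32). The test of this difference between stromas is the one given above for Bnip3l, 2.88 ± 0.46. Leaving out any 1 of the 6 libraries gave 6 or 7 calls: 6 without OP9 LPS replicate 1 or OP9 anti-IgM replicate 3, and 7 without each of the others. TPM as deposited called 4, 3 of them higher, and the authors' log2 table called 5, 4 of them higher. Among 35 other hypoxia genes 3 were higher with LPS than with anti-IgM on OP9 at 44 h and 2 were lower.

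Against unstimulated cells at 68 h, LPS raised 22 members in DL1 cells and lowered none, where 7.88% of all genes were called, 4.94% as higher and 2.93% as lower, and the median was 1.82, against 0.00 for all genes. Slc16a3 had 226, 172 and 6.92 scaled TPM with LPS, against 0.0836, 0 and 6.10 without a stimulus (log2 difference 5.10 ± 0.92, limma adjusted p = 0.000216), and in both groups replicate 3 differed from the rest. Pgk1 averaged 1091 ± 73.8 with LPS and 116 ± 37.9 without (3.26 ± 0.23, limma adjusted p = 2.39e-12). Aldoc averaged 507 ± 135 with LPS and 21.7 ± 6.06 without (4.48 ± 0.54), and Egln3 13.4 ± 3.55 with LPS and 0.157 ± 0.272 without (3.62 ± 0.33). Of 35 other hypoxia genes 8 rose and none fell, among them Fam162a at 923 ± 276 scaled TPM with LPS and 115 ± 29.3 without. Anti-IgM raised 8 members in DL1 cells and lowered none, where 9.4% of all genes were called, 5.19% as higher and 4.21% as lower, with a median of 0.29, against -0.13 for all genes. The 8 were Gapdh (2.25 ± 0.30), Tpi1, Ldha, Mif, Pgk1, Pgam1, Pfkp and Gpi1 (1.03 ± 0.20). Both comparisons use the same unstimulated libraries. For anti-IgM the calls were 4 with TPM as deposited, 5 with the authors' log2 table and 17 without the high-Actb libraries, 14 of them higher, where 27.5% of all genes were called.

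On OP9 the unstimulated cells are the group with stroma marker RNA, between 0.0991% and 1.42% of all TPM, and the part of this RNA in the following comparisons was not tested. LPS gave 17 members higher and 4 lower at 68 h, where 31.1% of all genes were called, 9.97% as higher and 21.2% as lower, and the median was 1.14, against -0.30 for all genes. Aldoc averaged 545 ± 81.0 scaled TPM with LPS and 3.57 ± 4.42 without (log2 difference 7.44 ± 0.54, limma adjusted p = 8.08e-13). Pfkp, the platelet-type phosphofructokinase, averaged 276 ± 29.5 with LPS and 56.6 ± 9.29 without (2.28 ± 0.19, limma adjusted p = 1.65e-11). The 4 lower members were Ldhb, P4ha2, Hif1a and P4ha1. Among 35 other hypoxia genes 4 were higher with LPS and 9 lower, and with anti-IgM none was higher and 12 were lower. Anti-IgM gave 3 members higher and 12 lower, where 24.4% of all genes were called, 7.97% as higher and 16.4% as lower, with a median of -0.66, against -0.11 for all genes. Pfkp (1.13 ± 0.19), Slc2a3 (1.36 ± 0.43) and Aldoc (1.79 ± 0.54) were higher. Without OP9 unstimulated replicate 3 the count for anti-IgM was 23, and without all high-Actb libraries it was 25, 21 of them lower, where 39.5% of all genes were called.

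DL1 against OP9 without a stimulus gave 2 members higher and 15 lower, where 26.8% of all genes were called, 8.59% as higher and 18.2% as lower, and the median was -0.95, against -0.21 for all genes. Ldhb, the lactate dehydrogenase subunit of oxidative tissues, had 3.63, 3.02 and 2.81 scaled TPM in DL1 cells, against 230, 135 and 29.0 in OP9 cells (log2 difference -4.57 ± 0.60, limma adjusted p = 2.86e-07). The collagen prolyl hydroxylase P4ha2 had 9.60, 6.28 and 4.87 in DL1 cells, against 242, 156 and 57.3 in OP9 cells (-4.09 ± 0.52, limma adjusted p = 1.86e-07). Within OP9 both genes were highest in replicate 1 and lowest in replicate 3. The 12 stroma markers together took 1.42%, 1.00% and 0.0991% of TPM in OP9 replicates 1, 2 and 3, against 0.0135% to 0.0315% in the 3 DL1 libraries. B cell markers took 0.587% to 0.667% of TPM in DL1 cells and 0.0519% to 0.226% in OP9 cells, and 5 of 8 were called higher in DL1 cells and none lower, with a median log2 difference of 1.82. The part of these markers' shift in the members' differences was not tested. Of the 12 stroma markers, 7 were higher in each OP9 unstimulated library than in any other group's library, Cxcl12 at 272 to 8838 TPM before scaling, while Lum was at 0 in 41 of the 45 libraries and Dcn in 34. In all other groups Ldhb did not pass 10.4 and P4ha2 did not pass 21.9 scaled TPM. Slc2a3 (1.87 ± 0.43) and Aldoc (2.83 ± 0.54) were the higher members. With TPM as deposited and with the authors' log2 table, 10 members were called, 3 higher and 7 lower in each. Among 35 other hypoxia genes 2 were higher in DL1 than in OP9 cells without a stimulus and 11 were lower.

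Blimp1 drives the plasma cell fate, and the Blimp1+ sort was checked on plasma cell markers. Igj, Xbp1, Prdm1 and Sdc1 together took 0.279% to 0.314% of TPM there, 0.00255% to 0.0192% in DL1 LPS cells at 68 h and 0.0171% to 0.0182% at 44 h. Against DL1 LPS cells at 44 h 6 members were higher in Blimp1+ cells and none lower, where 12.3% of all genes were called, 7.86% as higher, with a median of 0.17, against 0.13 for all genes. Stroma markers took 0.00862% to 0.0143% of TPM in Blimp1+ cells, 0.00453% to 0.00893% in DL1 LPS cells at 68 h and 0.00279% to 0.00564% at 44 h. Of the 10 stroma markers tested 1 (Col1a2) was higher than at 44 h and none lower, with a median log2 difference of 1.52, and none was called against 68 h, with a median of 1.27 (limma, 5 and 3 of them at an unadjusted p under 0.05). Of 8 B cell markers 2 were higher than at 44 h and none was called against 68 h, with 1 at an unadjusted p under 0.05. The part of either in the members' differences was not tested. Egln3 had 30.7, 33.5 and 29.2 scaled TPM in Blimp1+ cells, against 10.98, 8.73 and 9.57 in DL1 LPS cells at 44 h (log2 difference 1.58 ± 0.33, limma adjusted p = 0.000775). Aldoc (2.58 ± 0.54), Ldhb (2.08 ± 0.60), Eno2 (1.94 ± 0.48), Bnip3l (1.19 ± 0.32) and P4ha1 (1.11 ± 0.34) were the others. Against DL1 LPS cells at 68 h 2 were higher and none lower, where 2.84% of all genes were called, 2.56% as higher. Egln3 had 15.3, 15.5 and 9.26 at 68 h (1.19 ± 0.33, limma adjusted p = 0.0335), and Ldhb had 7.55, 6.16 and 10.4 in Blimp1+ cells, against 0.469, 0.541 and 0.482 at 68 h (2.57 ± 0.60, limma adjusted p = 0.00826). For 44 h, leaving out DL1 LPS replicate 2 gave 3 calls, TPM as deposited 2 and the authors' log2 values 0. For 68 h, 1 call was left without DL1 LPS replicate 3, Blimp1+ replicate 1 or Blimp1+ replicate 2, none without Blimp1+ replicate 3, and none with TPM as deposited or the authors' log2 table.

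Replicates that stood apart in Actb were compared with the rest of their groups. In the 4 groups at 68 h that hold 1 such library, 19 of the 36 members were below the mean of the other 2 libraries in all 4 groups, against 22.6% of all genes tested. The members above it in all 4 were 3 (Hk2, Egln1 and Ndrg1), against 25.6% of all genes, and 14 were mixed. Hk2 had 1786 scaled TPM in DL1 LPS replicate 3, against 29.0 and 36.3 in replicates 1 and 2, and 494 in OP9 anti-IgM replicate 3, against 3.02 and 2.84. Over all groups Hk2 lay at 174 to 1786 in the 10 high-Actb libraries, against 2.84 to 176 in the other 35. Pkm went the other way, at 469 in DL1 LPS replicate 3, against 2886 and 2801, and at 66.4 in OP9 unstimulated replicate 3, against 818 and 589. Pfkp differed little, with log2 differences of -0.21 to 0.02 between the high-Actb library and the mean of the others. What sets these libraries apart is not stated in the labels.

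**Figure D5:**
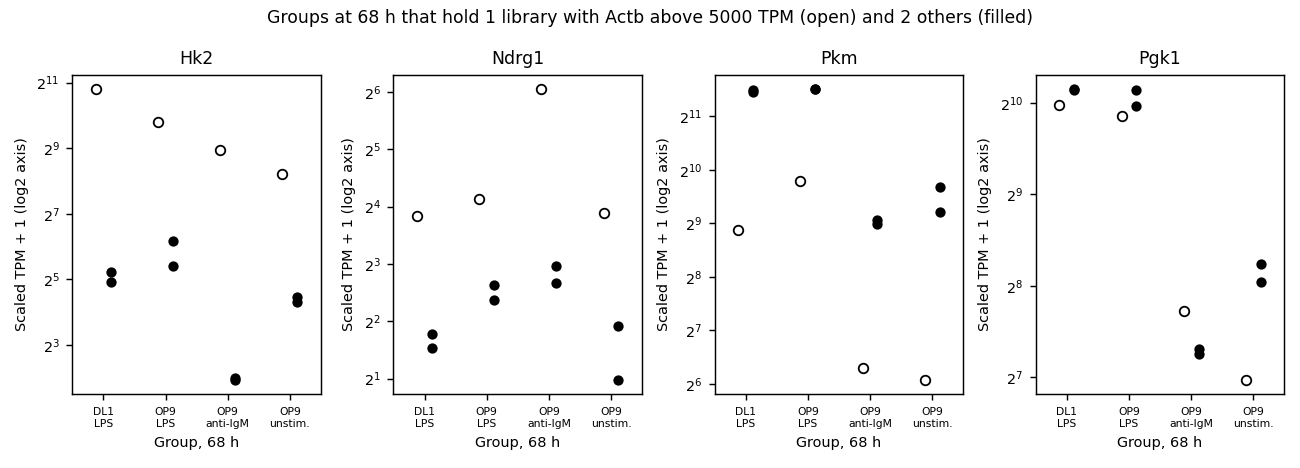
Scaled TPM + 1 on a log2 axis for 4 members in the 4 groups at 68 h that hold a library with Actb above 5000 TPM (open) beside 2 without (filled). Hk2 is at 296 to 1786 scaled TPM in the open points and at 2.84 to 71.0 in the filled ones, while Pkm is lower in every open point.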

How the data were processed

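RNA of sorted viable cells was made into cDNA with a SMART-seq kit and into libraries with Nextera XT, per the labels' protocols, where the series text and the labels name different kits. HiSeq and NextSeq instruments are named, without saying which library ran on which. The deposited TPM values are per gene symbol and library, and a deposited table of log2 values holds the authors' log2 estimated reads per 1e+06. Tools and builds named in the submitters' processing notes are kallisto and limma, with GRCm38 and mm10, and versions are not given in the sources used here. The TPM listed sum to 92.1% to 96% of 1e+06. Estimated reads solved from the log2 table were within 0.01 of a whole number for 1.54% to 34.9% of values between 0.5 and 20 reads, depending on the library, and no count test was run.

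TPM were divided by median-ratio size factors (0.418 to 1.33, from 7096 genes with at least 1 TPM in every library), and log2 was taken after adding a pseudocount of 1, which understates changes of low genes. Genes with at least 1 TPM in at least 3 libraries were tested with limma 3.58.1 in R 4.3.3, as 15 group means over all 45 libraries with trended, robust moderation. P-values were Benjamini-Hochberg adjusted over 15614 genes per comparison, with calls made below an adjusted p of 0.05. Fold changes are on the log2(value + 1) scale. Tested on simulated data for DL1 against OP9 with LPS at 44 h (15614 genes), the fit recovered 11% of genes changed by log2 1 and 62% of those changed by log2 2, with 5 unchanged genes called. Each gene was simulated independently, at its overall mean and its residual spread over all 45 libraries. The simulated data thus held no libraries that stand apart, and these rates may differ in the real groups.

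The members, the other gene lists and the comparisons were chosen with earlier results of these data known. Any member could be named, those with the largest called difference first, with at most 3 called genes of any other list. The list of other glycolysis isoforms and branch enzymes is not reported here. Other settings were TPM as deposited, the authors' log2 table, the replicate number as a block, no low-value filter, a filter at 5 TPM, a pseudocount of 0.1, only the groups compared, no libraries with Actb above 5000 TPM, and each library left out. Same-numbered libraries deviated together (every correlation over 0.1, from the data and not the labels) in the DL1 effect with LPS at 68 h (0.51, 0.52 and 0.77), the LPS effect on OP9 (0.30, 0.44 and 0.56) and the anti-IgM effect on OP9 (0.33, 0.53 and 0.61). In each of these pairs replicate 3 is a high-Actb library in both groups. No per-sample column was left unused. Promoters are RefSeq windows of GRCm38.p6, trimmed to the 250 bases before the start. Plots were drawn with matplotlib 3.10.9 in Python 3.11.15.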

Additional observations from a re-analysis of the deposited data

Results flagged for a closer look

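For 3 members the effect of DL1 at 44 h differed between LPS and anti-IgM by the test of that difference in the fit across all genes (limma, Benjamini-Hochberg). For Ddit4 the DL1 effect was 3.35 log2 units more positive with LPS (± 0.54 SE, adjusted p = 0.00203), with 22.3 ± 1.19 scaled TPM in DL1 and 4.36 ± 0.412 in OP9 cells with LPS, and 2.91 ± 1.74 in DL1 and 7.57 ± 0.729 in OP9 cells with anti-IgM (SD, n = 3 each). For Bnip3l the difference was 2.88 ± 0.46 (limma adjusted p = 0.00203), with 356 ± 36.5 in DL1 and 96.2 ± 21.7 in OP9 cells with LPS, and 101 ± 17.1 in DL1 and 198 ± 6.97 in OP9 cells with anti-IgM. For Egln3 it was 2.15 ± 0.46 (limma adjusted p = 0.0496), with 9.76 ± 1.14 in DL1 and 0.863 ± 0.355 in OP9 cells with LPS, and 0.421 ± 0.373 in DL1 and 0.0566 ± 0.0562 in OP9 cells with anti-IgM. Both Egln3 means with anti-IgM lay below the pseudocount of 1, which understates changes of low genes. The size of the Egln3 difference between stimuli is therefore uncertain. Over the 20 other settings the adjusted p ran between 9.34e-06 and 0.146 for Ddit4, between 0.000331 and 0.161 for Bnip3l and between 0.003 and 1 for Egln3. None of these 12 libraries had high Actb.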

How the results depend on the processing

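No called member changed direction in any setting run. Of 163 calls, 163 held with a filter at 5 TPM, 162 with the replicate block, 150 with a pseudocount of 0.1, 148 with no filter, 100 with TPM as deposited, 96 with only the groups compared and 91 with the authors' log2 table. Without high-Actb libraries 144 of the 147 that could be fitted held, and with 1 library left out 803 calls held and 193 did not. The block ended 1 call, Egln3 for LPS minus anti-IgM at 44 h (limma adjusted p = 0.0564). Leaving out high-Actb libraries gave no value for the DL1 effects at 20 h, since a whole group drops out. Members called then changed as follows, the cause not tested. With TPM as deposited they were 10 for DL1 unstimulated, 2 for DL1 with LPS at 20 h, 1 for DL1 with LPS at 44 h, 4 for anti-IgM on DL1, 4 for LPS against anti-IgM on OP9, 0 for LPS minus anti-IgM, 1 for DL1 LPS 68 against 44 h, 2 for Blimp1+ against 44 h and 0 against 68 h. With the authors' log2 table they were 10, 0 (LPS 44 h), 5 (anti-IgM on DL1), 5 and 10 (LPS against anti-IgM on OP9 and on DL1), 0 (LPS minus anti-IgM), 5 and 0 (68 against 44 h with LPS on OP9 and on DL1) and 0 for both Blimp1+ comparisons. A pseudocount of 0.1 gave 2 for DL1 LPS 68 against 44 h, and 3 and 0 for Blimp1+ against 44 and 68 h. No filter gave 1 for DL1 with LPS at 20 h, 1 for DL1 LPS 68 against 44 h and 1 for Blimp1+ against 68 h, and a filter at 5 TPM gave 1 for DL1 with anti-IgM at 44 h. Only the groups compared gave, for the DL1 effect, 4 (unstimulated), 1, 16 (LPS 20 and 44 h), 3, 17 and 0 (anti-IgM 20, 44 and 68 h), for LPS 8 on OP9 and 14 on DL1, for anti-IgM 3 on OP9 and 15 on DL1, for LPS against anti-IgM 26 on OP9 and 28 on DL1, 12 for LPS minus anti-IgM, 2 and 5 for 68 against 44 h on DL1 with LPS and with anti-IgM, and 18 and 1 for Blimp1+. Without high-Actb libraries the counts were 17, 12 and 11 for DL1 with LPS at 44 h and anti-IgM at 44 and 68 h, 25 and 17 for anti-IgM on OP9 and DL1, 20 for LPS against anti-IgM on OP9, 6 for LPS minus anti-IgM, 6 and 19 for OP9 LPS 44 against 20 h and 68 against 44 h, 1 for DL1 anti-IgM 68 against 44 h and 1 for Blimp1+ against 68 h. With 1 library left out the ranges were 1 to 6 (DL1, LPS 20 h), 4 to 14 and 1 to 5 (DL1, anti-IgM 20 and 68 h), 11 to 23 (anti-IgM, OP9), 6 to 7 (LPS against anti-IgM, OP9), 0 to 3 (OP9 LPS 44 against 20 h), 1 to 2 (DL1 LPS 68 against 44 h), 3 to 6 and 0 to 2 (Blimp1+ against 44 and 68 h). The scaling moved the median log2 difference of all genes by over 0.1 in several comparisons, as for DL1 unstimulated (-0.21, and 0.15 with TPM as deposited, where the members' median was -0.44). Egln3 is listed at 0 in 7 of the 45 libraries and Pfkfb4 in 6.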
